A study of Mus musculus with 4 samples.

Results

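Histone genes were taken as the table's genes whose GENCODE M21 symbol names one of the replication-dependent clusters Hist1, Hist2, Hist3 or Hist4, together with 9 variant genes. This rule found 77 of the table's 48432 genes, of which 68 were replication-dependent and 9 were variants (H2afx, H2afz, H2afv, H2afy, H2afy2, H3f3a, H3f3b, H1f0 and H1fx). Of the 68, Hist1h2aj, Hist1h2al and Hist3h2bb-ps are annotated as pseudogenes. Total RNA was sequenced from D2.OR organoids kept for 7 days in 3D culture with 5% Cultrex, a basement membrane extract. D2.OR is a mouse mammary cell line, labelled as pre-malignant hyperplastic alveolar cells. The 2 BORG libraries came from D2.OR cells that express BORG, a long non-coding RNA, and the 2 parental libraries from D2.OR cells that do not. The deposited table calls the cells without BORG Empty, and whether they carried an empty vector is not settled by the labels. BORG has no row of its own among those used here, so the labels were not checked against it.

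Histones are the proteins around which DNA is wrapped: H2A, H2B, H3 and H4 form the nucleosome core, and linker histone H1 binds where DNA enters and leaves it. Most are made from clustered, intronless, replication-dependent genes whose transcription and RNA stability peak in S phase. Their mRNAs usually end not in a poly(A) tail but in a short stem-loop, which stem-loop binding protein (Slbp) holds during processing, translation and decay. Variant histones are encoded outside the clusters, mostly by genes with introns and polyadenylated mRNAs, and can be laid down outside S phase. The kit named in the labels, TruSeq Stranded Total RNA, is one that removes ribosomal RNA rather than selecting poly(A) tails; whether mRNAs without a tail were read as well as the others was not tested here.

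Fragments assigned to genes numbered 7900767 and 27131662 in the BORG libraries and 24176438 and 30322679 in the parental libraries. Levels are given as CPM, a gene's fragments per M fragments of the library with TMM scaling, for a gene across libraries, and as the deposited FPKM, which are per length, between genes. BORG library 1 was the shallowest, and short transcripts were weighted differently in it: for the 32 tested replication-dependent genes with transcripts of at most 700 nt, the median length implied by counts and FPKM was 183 and 420 nt in the BORG libraries, against 310 and 312 nt in the parental libraries. The part of this in the results was not tested, and values on both scales are given for some of the genes and sums where they differ. Of the 5 alveolar markers, Elf5, Wap and Lalba had no fragment in any library, and the 5 summed to 0.252 and 0.291 CPM in BORG organoids and 0.126 and 0 CPM in parental organoids. The keratins Krt8 and Krt18 were abundant, and so was the fibroblast marker Pdgfra, at 575 and 482 CPM in BORG organoids and 693 and 763 CPM in parental organoids. The fibroblast marker Col1a1 had 121 and 181 CPM in BORG organoids and 143 and 115 CPM in parental organoids. Other fibroblast markers were near 0: Col1a2 reached at most 0.378 CPM and Lum 0.0729 CPM in any library, and Dpt had no fragment. The 5 epithelial markers summed to 1819 and 1831 CPM in BORG organoids and 2250 and 2192 CPM in parental organoids; Krt18 was lower, Krt8, Krt19 and Cdh1 were higher, and Epcam did not pass. The basal markers, nearly all Krt14, summed to 780 and 786 CPM in BORG organoids and 307 and 308 CPM in parental organoids, and the leukocyte markers to 12.4 and 13.8 CPM in BORG organoids and 8.49 and 9.34 CPM in parental organoids, although Ptprc among them was lower (-2.74). The 4 endothelial markers summed to 3.54 and 3.21 CPM in BORG organoids and 9.33 and 10.6 CPM in parental organoids, with Kdr and Cdh5 lower. Pecam1 among them was higher in value, at 0.505 and 0.874 CPM in BORG organoids and 0.0420 and 0.264 CPM in parental organoids. It did not pass (2.15, edgeR adjusted p = 0.0923). The part of these in the histone results was not tested.

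The stem-loop is the feature that sets replication-dependent mRNAs apart, so its letters are shown for members whose values are described below. It was searched as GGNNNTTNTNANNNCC on the transcript's strand, within 150 nt after the stop codon of GENCODE M21 transcripts. The motif was found in 45 of 74 members with a coding transcript (60.8%), against 81 of 22453 other genes (0.361%). Capitals mark the stem-loop, lower case the 5 bases on either side, and positions are on GRCm38.
Hist1h1c, chr13:23739507-23739532, plus strand: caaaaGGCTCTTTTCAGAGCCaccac
Hist1h3b, chr13:23752815-23752840, plus strand: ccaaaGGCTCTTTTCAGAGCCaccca
Hist1h3c, chr13:23745042-23745067, minus strand: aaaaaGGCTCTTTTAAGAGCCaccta
Hist1h3g, chr13:23535884-23535909, plus strand: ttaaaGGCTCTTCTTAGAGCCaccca
Hist1h4d, chr13:23581945-23581970, plus strand: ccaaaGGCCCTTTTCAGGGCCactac
Hist4h4, chr6:136803993-136804018, minus strand: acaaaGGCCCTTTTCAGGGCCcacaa
Hist2h2ac, chr3:96220413-96220438, minus strand: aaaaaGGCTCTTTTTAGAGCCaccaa
H2afx, chr9:44335235-44335260, plus strand: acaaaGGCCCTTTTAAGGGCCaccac
The core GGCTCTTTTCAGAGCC was shared by 24 members of the H1, H2A, H2B and H3 classes and by no H4 gene, and was found in 3 other genes (0.013%). Of the H4 genes, 7 carried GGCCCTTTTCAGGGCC, which no other member had, 2 carried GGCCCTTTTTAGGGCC, 2 carried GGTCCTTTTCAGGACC and 1 carried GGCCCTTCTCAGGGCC. H2afx, the H2A variant that is phosphorylated at DNA breaks, was the only variant with the motif. Among the replication-dependent genes without it, 15 have annotations that stop within 10 nt of the stop codon, where it could not have been found.

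Replication-dependent histone transcripts were lower in BORG organoids. They took 0.0891% and 0.147% of all fragments in the BORG libraries, against 0.456% and 0.270% in the parental libraries, and the groups did not overlap. Summed, they came to 1172 ± 401 CPM in BORG organoids and 3667 ± 1361 CPM in parental organoids (SD, n = 2 each), a ratio of 0.320. Of 54 replication-dependent genes tested, 32 were lower and 1 was higher at an adjusted p under 0.05 (edgeR's quasi-likelihood test, Benjamini-Hochberg over all genes), and 21 did not pass. Of all 15116 genes tested, 21.3% were lower and 19.9% higher (41.1% in either direction), so 59.3% of the tested members were lower, against 21.3% of all genes. The median log2 fold change was -1.47 over these 54 genes and 0.02 over all genes tested. The other 14 replication-dependent genes had too few fragments to be tested. In bulk RNA, fewer cells in S phase and less histone RNA per cell cannot be told apart.

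The libraries of each group also differed from each other. In CPM, parental library 1 was above parental library 2 for 51 of the 54 genes, and BORG library 2 was above BORG library 1 for 49. In FPKM the second difference was not seen: BORG library 2 was above BORG library 1 for 22 of 54, and the summed level was 2494 and 2308 FPKM in BORG organoids against 9501 and 5333 FPKM in parental organoids. Both BORG libraries lay below both parental libraries in CPM for 40 of the 54 genes and above them for 2, while 36.0% of all genes tested lay below and 36.6% above.

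**Figure D1:**
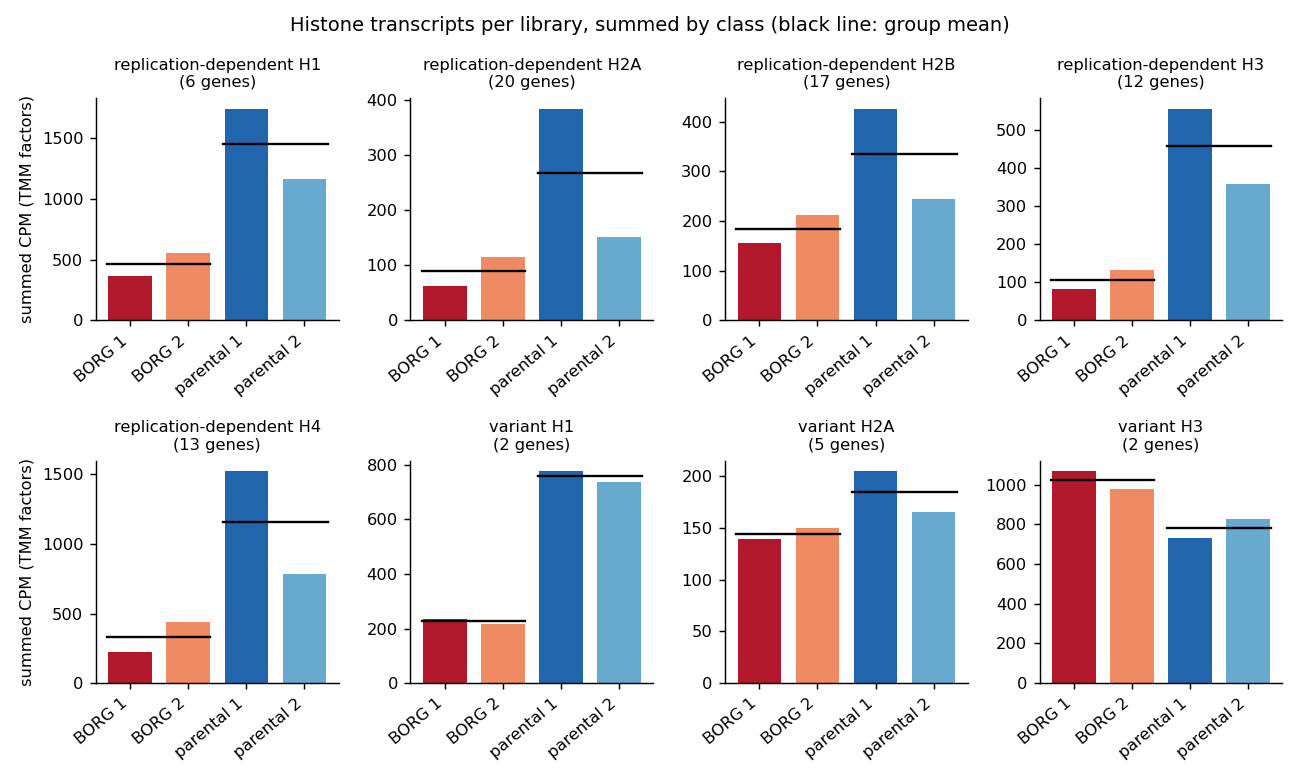
Summed CPM (y axis) of each histone class in the 4 libraries (x axis), with 1 bar per library and a black line at the group mean of 2 libraries. In all 5 replication-dependent classes, in variant H1 and in variant H2A both BORG bars are below both parental bars. For variant H3 (1068 and 976 CPM in BORG, 734 and 829 CPM in parental) they are above.

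Linker histone H1 genes fell as a class. All 5 tested members fell (100%, against 21.3% of all genes tested), with log2 fold changes from -1.34 (Hist1h1e) to -4.59 (Hist1h1a). The class summed to 368 and 554 CPM in BORG organoids and 1742 and 1165 CPM in parental organoids. Hist1h1a (chr13:23763666-23764406, plus strand), a somatic linker histone gene, showed the lowest fold change of all members. It had 2.90 and 4.70 CPM in BORG organoids against 118 and 78.7 CPM in parental organoids, so that each BORG library lay far below each parental library. The log2 fold change was -4.59 ± 0.29 (SE; edgeR adjusted p = 1.71e-04), or 24.0-fold higher in parental organoids. Without Hist1h1a the class was still 2.96 times as high in parental organoids. Hist1h1c (chr13:23738808-23740367), the H1 gene with the most fragments, had 154 and 255 CPM in BORG organoids and 701 and 436 CPM in parental organoids. The groups did not overlap, and it fell by 1.47 ± 0.30 on the log2 scale (edgeR adjusted p = 0.0102).

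The make-up of the H1 class shifted along with its level. Per length, Hist1h1a gave 1.08% and 1.40% of replication-dependent H1 FPKM in BORG organoids, against 9.17% and 10.1% in parental organoids. Hist1h1e gave 43.7% and 45.0% in BORG organoids and 34.3% and 33.2% in parental organoids. For both genes the libraries of a group lay close together and the groups lay apart. Hist1h1e overlaps Hist1h2be and Gm11398 on the same strand, so fragments of these genes may not be separated. H1f0, the linker variant that accumulates in cells that leave the cycle or differentiate, was also lower. It had 235 and 215 CPM in BORG organoids and 767 and 734 CPM in parental organoids, a log2 fold change of -1.74 ± 0.10 (edgeR adjusted p = 1.31e-04), and it passed under every alternative run. Its share of all H1 FPKM was 14.7% and 12.8% in BORG organoids and 12.8% and 17.3% in parental organoids, which overlap. H1fx, a low variant, had 0.631 and 2.11 CPM in BORG organoids and 8.20 and 3.27 CPM in parental organoids. At -1.88 ± 0.62 on the log2 scale it did not pass (edgeR adjusted p = 0.0515), and passed without parental library 2 (-2.40) or without BORG library 2 (-3.16).

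**Figure D2:**
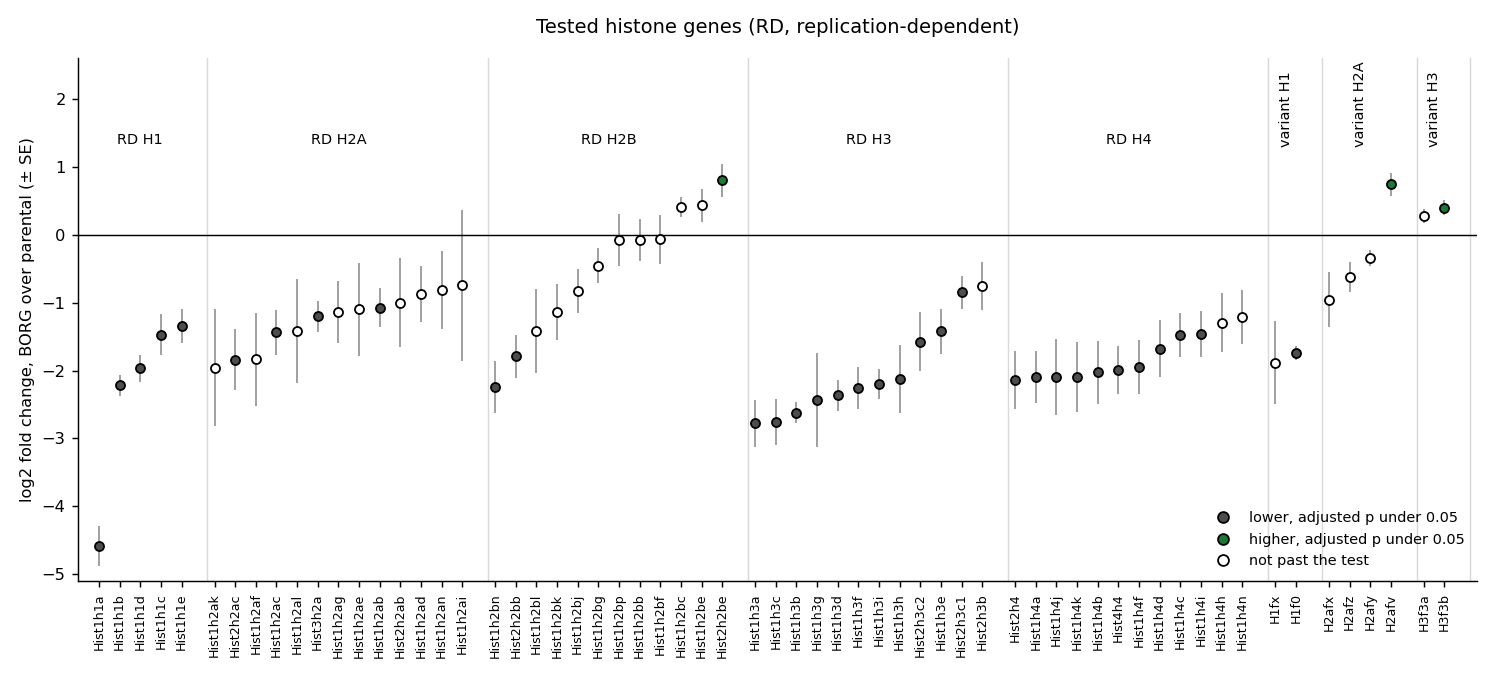
Log2 fold change, BORG over parental, with its SE (y axis) for each of the 62 tested members (x axis), grouped by class and sorted within it, where filled points passed the test. The replication-dependent H3 and H4 genes lie between -0.76 and -2.78, the variant H3 genes lie above 0, and the H2B genes spread from -2.25 to 0.80.

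Core histone H3 genes had the lowest class median. Of 12 tested, 11 fell and none rose (91.7% lower and 91.7% called, against 21.3% and 41.1% of all genes tested). The median log2 fold change was -2.23. The class summed to 81.7 and 132 CPM in BORG organoids and 555 and 358 CPM in parental organoids. Of the 5 lowest fold changes of all members, 4 belonged to H3 genes of the Hist1 cluster. Hist1h3a (chr13:23761853-23762386) had 5.05 and 8.93 CPM in BORG organoids and 64.0 and 37.6 CPM in parental organoids (log2 fold change -2.78 ± 0.34, edgeR adjusted p = 0.00159). Hist1h3c (chr13:23744973-23745602) had 6.19 and 12.8 CPM in BORG organoids and 82.4 and 54.4 CPM in parental organoids (log2 fold change -2.76 ± 0.34, or -3.46 without BORG library 2). In neither gene did the groups overlap. Hist1h3b (chr13:23752267-23752886), another of the 5 lowest, had 7.70 and 7.00 CPM in BORG organoids and 48.1 and 41.7 CPM in parental organoids (log2 fold change -2.62 ± 0.15, edgeR adjusted p = 1.38e-04). Hist1h3f, the H3 gene with the most fragments, had 15.2 and 23.7 CPM in BORG organoids and 120 and 71.4 CPM in parental organoids and fell by 2.26 on the log2 scale. Hist1h3g was less certain: it had 1.39 and 2.11 CPM in BORG organoids and 16.2 and 3.93 CPM in parental organoids. Its log2 fold change of -2.43 ± 0.69 (edgeR adjusted p = 0.0321) became -1.14 without parental library 1 and no longer passed (adjusted p = 0.0771), nor did it in limma on log2(FPKM + 1) (adjusted p = 0.201). The gene that did not pass was Hist2h3b, at 10.9 and 19.7 CPM in BORG organoids and 34.0 and 19.3 CPM in parental organoids.

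The H3.3 genes H3f3a and H3f3b, which encode 1 protein that can be placed into chromatin outside S phase as well, were higher in value. H3f3b had 976 and 883 CPM in BORG organoids and 660 and 749 CPM in parental organoids, and both BORG libraries were above both parental ones. Its log2 fold change was 0.40 ± 0.11 (edgeR adjusted p = 0.0275). That call was lost without parental library 1 (adjusted p = 0.322), parental library 2 (0.0819) or BORG library 1 (0.0706), and in limma on log2(FPKM + 1), where the value was 0.13 (adjusted p = 0.781). H3f3a had 91.5 and 93.7 CPM in BORG organoids and 73.6 and 79.0 CPM in parental organoids, and its log2 fold change of 0.28 ± 0.10 did not pass (edgeR adjusted p = 0.0761). In FPKM the sum of both overlapped between groups, at 426 and 510 FPKM in BORG organoids and 361 and 501 FPKM in parental organoids. With replication-dependent H3 lower, H3f3a and H3f3b together made up 58.3% and 68.1% of all H3 FPKM in BORG organoids, against 21.9% and 36.9% in parental organoids. These shares did not overlap, and they are shares of RNA, not of protein.

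H4 genes fell nearly as uniformly, and unlike H3 they have no variant genes here. Of 12 tested, 10 fell and none rose (83.3% lower and 83.3% called, against 21.3% and 41.1% of all genes tested). The median log2 fold change was -1.97, with a range from -2.15 (Hist2h4) to -1.21 (Hist1h4n). All 12 had both BORG libraries below both parental libraries in CPM, as did 36.0% of all genes tested. The class summed to 221 and 441 CPM in BORG organoids and 1522 and 786 CPM in parental organoids. Hist1h4d (chr13:23581598-23582735) had the highest H4 level, 264 and 272 FPKM in BORG organoids and 1085 and 586 FPKM in parental organoids. In CPM it had 47.5 and 99.5 in BORG organoids and 314 and 162 in parental organoids, and it fell by 1.68 ± 0.42 on the log2 scale (edgeR adjusted p = 0.0208; -2.33 without BORG library 2). Hist4h4 (chr6:136801553-136804415), the only gene of its cluster, had 21.3 and 37.2 CPM in BORG organoids and 154 and 84.9 CPM in parental organoids. It fell by 1.99 ± 0.35 on the log2 scale (edgeR adjusted p = 0.00598). The H4 genes that did not pass, Hist1h4h and Hist1h4n, had adjusted p-values of 0.0536 and 0.0517.

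H2A genes were lower in value throughout, and fewer of them passed. Every one tested also has an annotated gene overlapping it on the opposite strand. Of 13 tested, 4 fell and none rose (30.8% lower and 30.8% called, against 21.3% and 41.1% of all genes tested). The median log2 fold change was -1.14, and all 13 values were below 0. Among the 13 is Hist1h2al, annotated as a processed pseudogene. It had 5.30 and 20.8 CPM in BORG organoids and 60.8 and 14.5 CPM in parental organoids, which overlap, and did not pass. The class summed to 62.2 and 115 CPM in BORG organoids and 384 and 152 CPM in parental organoids. Its log2 ratio of -1.59 was -0.77 without parental library 1, which stood highest. Hist2h2ac (chr3:96220361-96220880) had the most fragments, with 22.1 and 39.1 CPM in BORG organoids and 160 and 65.2 CPM in parental organoids. It fell by 1.84 ± 0.45 on the log2 scale (edgeR adjusted p = 0.0196), or by 1.09 without parental library 1. Hist3h2a (chr11:58954685-58956830) had 16.3 and 18.2 CPM in BORG organoids and 48.4 and 31.6 CPM in parental organoids, with no overlap. Its log2 fold change was -1.20 ± 0.22 (edgeR adjusted p = 0.00715). Trim17 overlaps it on the same strand, so fragments of these genes may not be separated. Hist1h2ak shows how far the parental libraries could part: it had 3.03 and 9.65 CPM in BORG organoids and 46.7 and 7.49 CPM in parental organoids, which overlap, and it did not pass. This gene was chosen after its values were seen.

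The H2A variants did not move as 1 group. H2afv, one of the genes for H2A.Z, rose: it had 26.8 and 22.7 CPM in BORG organoids and 16.1 and 13.3 CPM in parental organoids. Its log2 fold change was 0.74 ± 0.17 (edgeR adjusted p = 0.0155), and the call was lost without parental library 2 (adjusted p = 0.0821) and in limma on log2(FPKM + 1) (0.0944). The other H2A.Z gene, H2afz, had 15.8 and 18.8 CPM in BORG organoids and 21.6 and 32.1 CPM in parental organoids. At -0.63 ± 0.22 it did not pass (edgeR adjusted p = 0.0650) but did without parental library 1 (0.00607) or BORG library 2 (0.0332). Both groups were thus separated for both genes, in opposite directions. H2afx had 15.3 and 23.0 CPM in BORG organoids and 53.2 and 22.9 CPM in parental organoids, which overlap. At -0.96 ± 0.40 on the log2 scale it did not pass (edgeR adjusted p = 0.105), was -0.26 without parental library 1, and passed without parental library 2 (-1.45) or BORG library 2 (-1.31). H2afy, which encodes the large variant macroH2A1, had 81.2 and 85.0 CPM in BORG organoids and 114 and 97.4 CPM in parental organoids (log2 fold change -0.34 ± 0.12, edgeR adjusted p = 0.0634). In FPKM its groups overlapped, at 43.6 and 33.5 in BORG organoids and 52.7 and 43.4 in parental organoids. H2afy2, the gene for macroH2A2, had no fragment in either BORG library and 0 and 0.0330 CPM in parental organoids, so it was not tested. Of the 8 tested variants of all classes, 1 fell, 2 rose and 5 did not pass, a called share of 37.5% against 41.1% of all genes. Without BORG library 2, 6 passed.

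**Figure D3:**
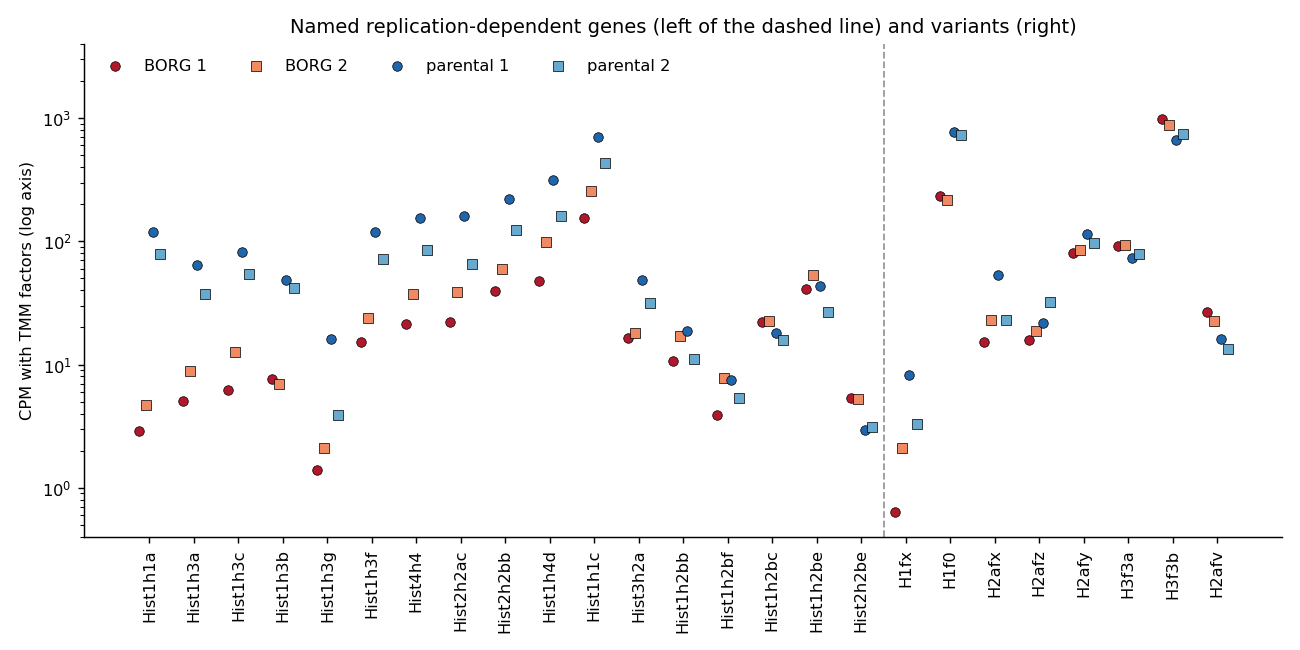
CPM on a log axis (y) of the named replication-dependent genes and of the 8 tested variants (x), with 1 symbol per library. Parental symbols lie above BORG symbols for the genes at the left, and the libraries mix or change order for the H2B genes just left of the dashed line.

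H2B genes were the most mixed class. Of 12 tested, 2 fell, 1 rose and 9 did not pass (16.7% lower and 25.0% called, against 21.3% and 41.1% of all genes). The median log2 fold change was -0.27, and the values ran from -2.25 to 0.80. The class summed to 156 and 213 CPM in BORG organoids and 427 and 244 CPM in parental organoids. That is a log2 ratio of -0.86, or -0.40 without parental library 1, and -1.22 in summed FPKM, where the short genes weigh more. The difference between H2B and the other classes was not tested. The genes that fell were Hist2h2bb and Hist1h2bn. Hist2h2bb (chr3:96269752-96270132), the most abundant H2B gene, had 39.4 and 59.3 CPM in BORG organoids and 222 and 123 CPM in parental organoids (log2 fold change -1.79 ± 0.32, edgeR adjusted p = 0.00594). Its part of replication-dependent H2B FPKM was 38.7% and 44.5% in BORG organoids, against 61.3% and 63.5% in parental organoids. Hist2h2bb overlaps Gm42743 on the same strand and Gm20628 on the opposite strand, so its fragments may not be separated from theirs.

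The 5 highest fold changes of all replication-dependent members belonged to H2B genes. Hist2h2be (chr3:96221119-96223738) had 5.30 and 5.25 CPM in BORG organoids and 2.94 and 3.10 CPM in parental organoids, with both groups tight. Its log2 fold change of 0.80 ± 0.25 was the only one to pass upward (edgeR adjusted p = 0.0440). The call was lost in DESeq2 (adjusted p = 0.124), in limma on log2(FPKM + 1) (0.122) and without any 1 of the 4 libraries (0.0862 to 0.182), while the value stayed between 0.73 and 0.84 in those refits. Hist1h2be had 41.0 and 53.4 CPM in BORG organoids and 43.7 and 26.9 CPM in parental organoids, which overlap. It did not pass (0.43 ± 0.25, edgeR adjusted p = 0.209) but did without parental library 1 (0.79, adjusted p = 0.0110). Its annotation spans chr13:23583670-23621124 and overlaps Hist1h1e on the same strand, so fragments of the 2 genes may not be separated. Hist1h2bc had 22.1 and 22.8 CPM in BORG organoids and 18.0 and 15.8 CPM in parental organoids (0.41 ± 0.15, edgeR adjusted p = 0.0643). Hist1h2bf and Hist1h2bb had values of -0.07 and -0.08 with overlapping groups, and both turned positive without parental library 1 or without BORG library 1.

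**Figure D4:**
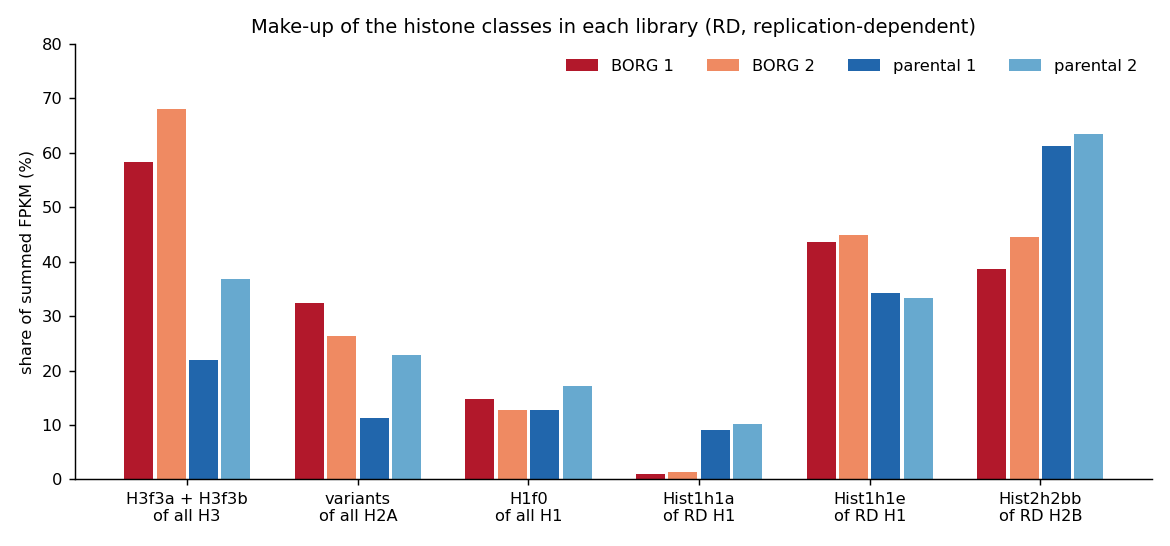
Share of summed FPKM in percent (y axis) for 6 subsets of histone RNA (x axis), with 1 bar per library. The H3.3 genes take a larger share of H3, and Hist1h1a and Hist2h2bb smaller shares of their classes, in both BORG libraries than in either parental library, whereas the shares of H1f0 overlap.

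Position in the clusters was examined next, since members of a class sit among genes of other classes. The Hist1 cluster on chromosome 13 lies in 2 main blocks. In the block from 21715763 to 22043676, 7 of 16 tested genes fell (43.8%; median log2 fold change -1.44), and in the block from 23531050 to 23934851, 18 of 27 fell (66.7%; median -1.48). In each block 9 tested genes did not pass, and none rose. The pseudogene Hist1h2al lies outside both blocks and did not pass. In the Hist2 cluster on chromosome 3, 5 of 8 tested genes fell and 1 rose (median -1.29), and the 1 tested gene of the Hist3 cluster and the 1 gene of Hist4 fell. Neighbouring H2A and H2B genes start head to head in 13 pairs, with 173 to 306 nt between their annotated starts, and in 8 pairs both genes were tested. These pairs were looked for after the values were known. The H2B gene had the higher log2 fold change in 6 of the 8 pairs, and the values differed in sign in 2.

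In the Hist2h2ac and Hist2h2be pair, whose starts are 239 nt apart, Hist2h2ac fell and Hist2h2be rose in the main test. The fragment ratio of Hist2h2be to Hist2h2ac was 0.240 and 0.134 in the BORG libraries, against 0.0184 and 0.0476 in the parental libraries. In the Hist1h2ac and Hist1h2bc pair, 251 nt apart, Hist1h2ac fell (-1.44 ± 0.33, edgeR adjusted p = 0.0160) and Hist1h2bc did not pass. In FPKM the groups of Hist1h2ac overlapped, at 18.2 and 6.89 in BORG organoids and 34.1 and 18.0 in parental organoids. The ratio of Hist1h2bc to Hist1h2ac was 6.73 and 7.02 in the BORG libraries and 1.58 and 2.50 in the parental libraries. In both pairs the ratio was higher in each BORG library than in each parental one. These are the 2 pairs whose values differed in sign, so a higher ratio in BORG organoids is largely built into their choice.

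**Figure D5:**
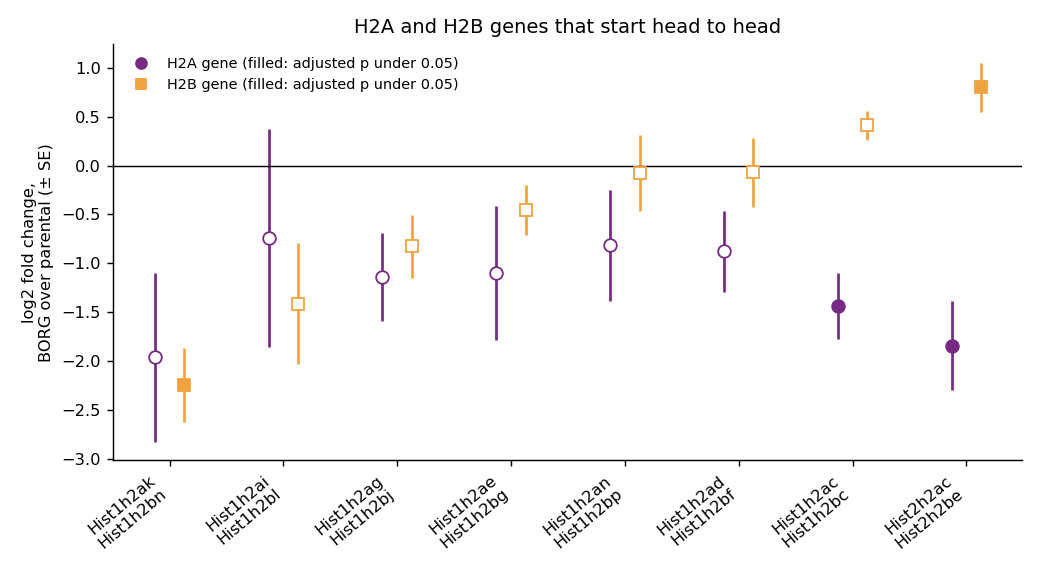
Log2 fold change, BORG over parental, with its SE (y axis) for the H2A gene (circle) and H2B gene (square) of the 8 head-to-head pairs with both genes tested (x axis), where filled symbols passed the test. The symbols part most at the right, with -1.84 for Hist2h2ac and 0.80 for Hist2h2be.

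The 250 bases before the start of each H2A gene, from RefSeq on GRCm38.p6, hold nearly all or the whole of the interval between the paired starts, and are shown because the paired genes read away from it in opposite directions with different fold changes. They run 5′ to 3′ toward the H2A gene. Those of Hist1h1a and Hist1h1c follow, as the H1 gene with the lowest fold change and the one with the most fragments. Capitals mark every match, on either strand, to CCAAT, to the octamer ATTTGCAT known from H2B promoters, to TATAAA, or to AAACACA known from H1 promoters.
Hist2h2ac and Hist2h2be, chr3:96220881-96221130, minus strand: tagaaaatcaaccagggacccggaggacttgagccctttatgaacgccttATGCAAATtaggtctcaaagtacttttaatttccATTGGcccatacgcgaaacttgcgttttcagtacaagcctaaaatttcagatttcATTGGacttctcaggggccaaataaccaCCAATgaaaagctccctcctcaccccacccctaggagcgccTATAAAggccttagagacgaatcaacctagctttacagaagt
Hist1h2ac and Hist1h2bc, chr13:23683960-23684209, minus strand: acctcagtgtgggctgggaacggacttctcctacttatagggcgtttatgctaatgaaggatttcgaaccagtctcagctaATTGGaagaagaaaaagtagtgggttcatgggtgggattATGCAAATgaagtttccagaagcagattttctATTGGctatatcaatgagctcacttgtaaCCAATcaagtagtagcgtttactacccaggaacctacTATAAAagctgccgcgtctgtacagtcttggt
Hist1h1a, chr13:23763418-23763667, plus strand: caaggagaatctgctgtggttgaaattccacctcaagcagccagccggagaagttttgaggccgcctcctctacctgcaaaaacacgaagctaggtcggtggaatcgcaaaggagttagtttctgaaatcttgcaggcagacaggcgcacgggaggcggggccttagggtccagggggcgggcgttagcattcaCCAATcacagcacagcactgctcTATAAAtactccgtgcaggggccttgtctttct
Hist1h1c, chr13:23738557-23738806, plus strand: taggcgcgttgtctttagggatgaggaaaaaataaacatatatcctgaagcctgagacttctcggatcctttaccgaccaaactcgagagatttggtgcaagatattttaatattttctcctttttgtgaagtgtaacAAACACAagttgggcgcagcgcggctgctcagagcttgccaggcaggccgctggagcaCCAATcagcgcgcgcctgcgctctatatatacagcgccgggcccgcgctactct
Promoters were matched for 60 replication-dependent genes. CCAAT was found in all 14 matched H2B, all 18 H2A and all 6 H1 promoters and in 3 of 12 H4 promoters (25.0%), against 34.4% of the first listed promoters of 26957 other genes. ATTTGCAT was found in 5 of 14 H2B (35.7%) and 7 of 18 H2A promoters (38.9%), and in 1.57% of those of other genes. AAACACA was found in 5 of 6 H1 promoters and in 6.21% of those of other genes, and Hist1h1a, the H1 gene with the lowest fold change, was the one H1 promoter without it. TATAAA was found in 16 of 29 promoters of members that fell (55.2%) and 9 of 19 of tested members that did not (47.4%), against 12.9% of other genes. The same split gave 72.4% and 89.5% for CCAAT, 17.2% and 21.1% for ATTTGCAT, and 17.2% and 0% for AAACACA. These splits are mixed with class: the fallen members with AAACACA are all H1 genes apart from Hist1h2ab, and every tested H1 gene fell. Few H4 promoters hold CCAAT, and most tested H4 genes fell. These differences were not tested. These matches describe letters in a 250-base window only.

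The members were also split by how their mRNA is annotated to end. For comparison, 21.3% of all genes tested were lower and 41.1% were called in either direction. Of 37 tested replication-dependent genes with the stem-loop, 25 fell and none rose (67.6% lower, median log2 fold change -1.46). Of 16 tested without it, 7 fell and 1 rose (43.8% lower), with a lower median of -1.81. For 12 of these 16, the annotation ends within 10 nt of the stop codon, where the motif could not have been found. Of those 12, 6 fell (median -1.90), and of the other 4, 1 fell and 1 rose (median -0.17). The difference between these groups was not tested. Genes annotated for at least 500 nt after the stop codon, among them Hist2h2be and Hist1h2bc, in which the motif was not found, gave 11 of 14 lower and 1 higher (median -1.45), and shorter ones 21 of 39 lower (median -1.57). Of 7 members whose human namesakes are known to make polyadenylated transcripts as well, 4 fell (Hist1h1c, Hist1h2ac, Hist3h2a and Hist4h4), 1 rose (Hist2h2be) and 2 did not pass (Hist1h2bc and Hist1h2bk), with a median of -1.20. Of 35 tested members with no annotated gene overlapping them on either strand, 24 fell and 1 rose (68.6% lower, median -1.95). With an overlapping gene on the opposite strand 6 of 16 fell (37.5%, median -1.17), and with one on the same strand 5 of 6 (median -1.27). The opposite-strand group holds every tested H2A gene and few others, so it largely repeats the H2A class. Near-identical copies can share fragments, so single copies are less certain than the class sums.

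Genes that make, process or deliver histones were examined as 3 lists. Of 24 tested genes for histone mRNA processing and decay, 12 fell and 3 rose (50.0% lower and 62.5% called, against 21.3% and 41.1% of all genes tested; median log2 fold change -0.34). Without parental library 1 the called count was 8 of 24, when 4957 of all 15116 genes were called. Slbp, which binds the stem-loop, had 28.8 and 24.9 CPM in BORG organoids and 28.8 and 26.7 CPM in parental organoids. The groups overlapped and it did not pass (-0.06 ± 0.14, edgeR adjusted p = 0.771). Npat, the S-phase coactivator of histone genes, also overlapped between groups (0.00 ± 0.15, edgeR adjusted p = 0.988). Of the cleavage complex, Cpsf3, the endonuclease, had 23.5 and 22.6 CPM in BORG organoids and 49.1 and 47.8 CPM in parental organoids and fell by 1.07 ± 0.11 on the log2 scale (edgeR adjusted p = 9.40e-04). Its partner Cpsf2 fell by 1.19 and the cleavage stimulation subunit Cstf2 by 1.44 on the log2 scale, while Cstf2t, the paralog of Cstf2, rose by 0.63. The cap-binding gene Ncbp1 fell by 0.88, and Lsm11, a subunit of the U7 particle that guides cleavage, rose by 0.85 on the log2 scale. Cpsf2, Cpsf3, Cstf2 and Ncbp1 also act on other mRNAs.

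Of 27 tested histone chaperone and import genes, 9 fell and 3 rose (33.3% lower; median log2 fold change -0.15). That is a called share of 44.4%, near the 41.1% of all genes tested, and the called count of 12 became 7 without parental library 2. Asf1b, which passes H3 and H4 to assembly factors, had 16.9 and 18.2 CPM in BORG organoids and 29.2 and 29.4 CPM in parental organoids (-0.73 ± 0.13, edgeR adjusted p = 0.00658). Nasp fell by 0.62, Chaf1b, a subunit of the replication-coupled assembly factor, by 0.92, Mcm2, a helicase subunit that also binds histone H3, by 0.97 and the importin Ipo4 by 1.04 on the log2 scale. Other genes of the list with roles at replication forks did not pass, namely Chaf1a (-0.25), Rbbp4 (-0.03), Ssrp1 (-0.24) and Tonsl (0.18). Those that rose, Ubn1 (0.68), Ubn2 (0.59) and Atrx (0.64), belong to the HIRA and DAXX-ATRX systems that deposit H3.3. Hira (0.15) and Daxx (0.03) themselves did not pass, and Cabin1, another HIRA complex member, fell by 0.42. Genes other than the 4 with the smallest p of each list were chosen after their values were seen.

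Of 22 tested genes of S phase, 12 fell and 1 rose (54.5% lower and 59.1% called, against 21.3% and 41.1% of all genes). The median log2 fold change was -0.71, and Cdt1 and Gins2 were listed at 0 in every library. Rrm2, the regulated subunit of ribonucleotide reductase, had 21.5 and 18.4 CPM in BORG organoids and 68.0 and 75.4 CPM in parental organoids, and fell by 1.86 ± 0.13 on the log2 scale (edgeR adjusted p = 2.48e-04). The helicase subunit Mcm3 fell by 1.56, the transcription factor gene E2f2 by 1.55 and the polymerase subunit Pola1 by 1.56 on the log2 scale. E2f1, a related factor, rose by 1.13, and Pcna, the polymerase clamp, did not pass (-0.26 ± 0.16). Summed over the list, the level was 372 and 349 CPM in BORG organoids and 546 and 574 CPM in parental organoids. In CPM, the within-group order of these sums was the reverse of that of the summed replication-dependent histone genes in both groups. In FPKM the histone sum was 2494 and 2308 in BORG organoids, the order of the S-phase CPM. It was 9501 and 5333 in parental organoids, still the reverse of the S-phase CPM. The S-phase list was not summed in FPKM. Of 11 further histone genes outside the rule, 3 were tested and none passed in edgeR (0.0596 was their lowest adjusted p): H2afj (-0.93), Cenpa, the centromeric H3 (0.30), and H3f3c (0.30).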

How the data were processed

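The deposited table holds estimated counts of fragments per gene and library and FPKM computed by the authors, per the file headers; 2 columns of scaled fragments were not used. Tools named in the submitters' processing notes were FastQC, Trim Galore, TopHat and Cufflinks, without versions, and the notes list GRCm38, mm10 and mm8 as builds. Neither the counter's strand setting nor its annotation is stated, so overlapping genes may share fragments. The condition Empty was read as parental and replicates numbered from 0 as 1 and 2. Symbols came from GENCODE M21 (48051 of 48432 identifiers matched). Counts were rounded and tested with edgeR 4.0.16 (quasi-likelihood, TMM, filterByExpr with a minimum count of 10, 2 against 2 libraries, two-sided, Benjamini-Hochberg over 15116 genes, threshold 0.05), after a test on simulated data. Alternatives used limma 3.58.1 on log2(FPKM + 1) and log2(FPKM + 0.1), DESeq2 1.42.0, other scalings, filters and left-out libraries. The biological coefficient of variation was 0.168. Labels do not say how the duplicates were separated, so p-values reflect the spread among these libraries, which may be technical. Members and lists were chosen with earlier results of these data known. Named genes were all variants, the member with most CPM in each class and cluster, the 5 highest and 5 lowest fold changes, and the 4 smallest p of each list; others are marked as chosen later or belong to complete counts.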

Additional observations from a re-analysis of the deposited data

How the results depend on the processing

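The number of replication-dependent genes called was 33 in the main test, 30 to 47 under the other scalings, filters and tests, and 30 to 43 with 1 library left out. Genes called in all fell to 4070 in limma on log2(FPKM + 1), and were 4615 to 6031 with 1 library left out. Called variants numbered 5 in DESeq2, 1 in limma on log2(FPKM + 1) and 7 without a filter, and 2 to 6 with 1 library left out. Called genes for histone mRNA processing numbered 8 in both limma fits and 8 to 14 with 1 library left out; chaperones numbered 4 in both limma fits and 7 to 12 with 1 library left out. S-phase calls fell to 6 with at least 5 FPKM required, since only part of the list was then tested, and were 11 to 15 with 1 library left out. Same-numbered libraries did not deviate together (correlation -0.44), and with the replicate block 4190 genes were called, 31 of them replication-dependent histone genes, 2 variants, 8 of the processing and 6 of the chaperone list; H3f3b (adjusted p = 0.124) and Hist2h2be (0.130) were not called with it. A crossed replicate block, chosen after seeing the data, called 9319 genes, 49 replication-dependent, 8 variants and 19 chaperones. Among single named genes, Hist1h2bb ran from -0.48 to 0.31 and Hist1h2bf from -0.70 to 0.29 with 1 library left out, each lowest without BORG library 2. Their positive values were 0.31 and 0.15 without parental library 1 and 0.19 and 0.29 without BORG library 1. The cause of these shifts was not tested. With 2 libraries a group, and 7900767 fragments in the shallowest, low members were not testable.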
